A study of Zea mays with 6 samples.

Results

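Transcript levels of 4 maize genes of branch angle and axillary growth were followed in young tassels, the male inflorescence, among the 39305 genes of the deposited table. The genes were taken by identifier. They are BAD1 (branch angle defective1, identifier GRMZM2G110242) and tb1 (teosinte branched1, AC233950.1_FG002), both of the TCP family, the homeobox gene gt1 (grassy tillers1, GRMZM2G005624) and tru1 (tassels replace upper ears1, GRMZM2G039867). Tassels of 2 to 4 mm came from greenhouse plants in the inbred B73 background. The Bif1;Bif4 group, double heterozygous for both mutations, had 3 libraries of 10 pooled tassels each, and the wildtype group had 3 libraries of 5 pooled tassels each. Both mutations, named Barren inflorescence for their effect, are dominant and lie in genes for Aux/IAA proteins, which repress auxin signalling. They reduce the number of branches and spikelets that the tassel forms. The series as a whole is named for needle1, a gene for an ATP-dependent metalloprotease of mitochondria.

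TCP proteins are plant transcription factors that regulate growth of meristems and organs. BAD1 and tb1 belong to the same subgroup of that family but act at different places. BAD1 is active at the base of tassel branches, where it promotes growth of the pulvinus, the cushion of tissue that pushes a branch away from the main axis. The product of tb1 holds back axillary buds and was a target of selection when maize was domesticated. In maize buds it acts through gt1, which encodes a class I homeodomain-leucine zipper factor, and tru1, which encodes an ankyrin-repeat protein with a BTB domain. In tru1 mutants the branches that should bear ears end in tassels instead.

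The libraries held 21047225 to 24636859 reads. Values are normalized counts, which are read counts that the authors divided by a size factor per library. A single read was worth 0.915 to 1.10 normalized counts, and a value of 0 allows up to 3 reads, or 2.75 to 3.30 normalized counts, for counting error only. The genotypes separated on the first principal component (48.2% of the variance), and wildtype replicate 2 lay apart from the other libraries on the second (24.4%). Calls on list genes that change without that library are given with and without it. Of the 11 markers listed for inflorescence and meristem tissue, 9 were matched by name, and their summed level was 11810 to 13343 normalized counts in Bif1;Bif4 and 20481 to 20960 in wildtype. The most abundant of them, the meristem homeobox gene kn1, was at 6797 to 7882 in Bif1;Bif4 and 8630 to 9258 in wildtype, while the branching genes BA1, ra1 and ra3 lay between 0 and 6.85 in Bif1;Bif4 and between 125 and 2279 in wildtype. Matched leaf photosynthesis markers, 6 of 8 listed, summed to 1684 to 2053 in Bif1;Bif4 and 1718 to 1868 in wildtype.

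BAD1 was far lower in Bif1;Bif4 than in wildtype tassels. Its normalized counts were 30.1, 17.9 and 47.9 in Bif1;Bif4 replicates 1 to 3 and 303, 303 and 339 in wildtype replicates 1 to 3. The groups lay far apart, with 18 to 49 reads per Bif1;Bif4 library against 275 to 331 per wildtype library. The mean was 32.0 ± 15.1 in Bif1;Bif4 and 315 ± 21.1 in wildtype (SD, n = 3 each), so that the mutant mean was 10.2% of the wildtype mean. BAD1 fell, with a log2 fold change of -3.36 for Bif1;Bif4 over wildtype (SE 0.32, by limma, adjusted p = 0.0016 over all genes tested) and a 95% interval from -4.10 to -2.63. By the size of its change it ranked 40th among the 637 genes that fell. The 637 are 2.91% of the 21924 genes tested, and 14.2% of tested genes were lower in every Bif1;Bif4 library than in every wildtype library. The spread between replicates was 47.3% of the mean in Bif1;Bif4 and 6.69% in wildtype.

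**Figure D1:**
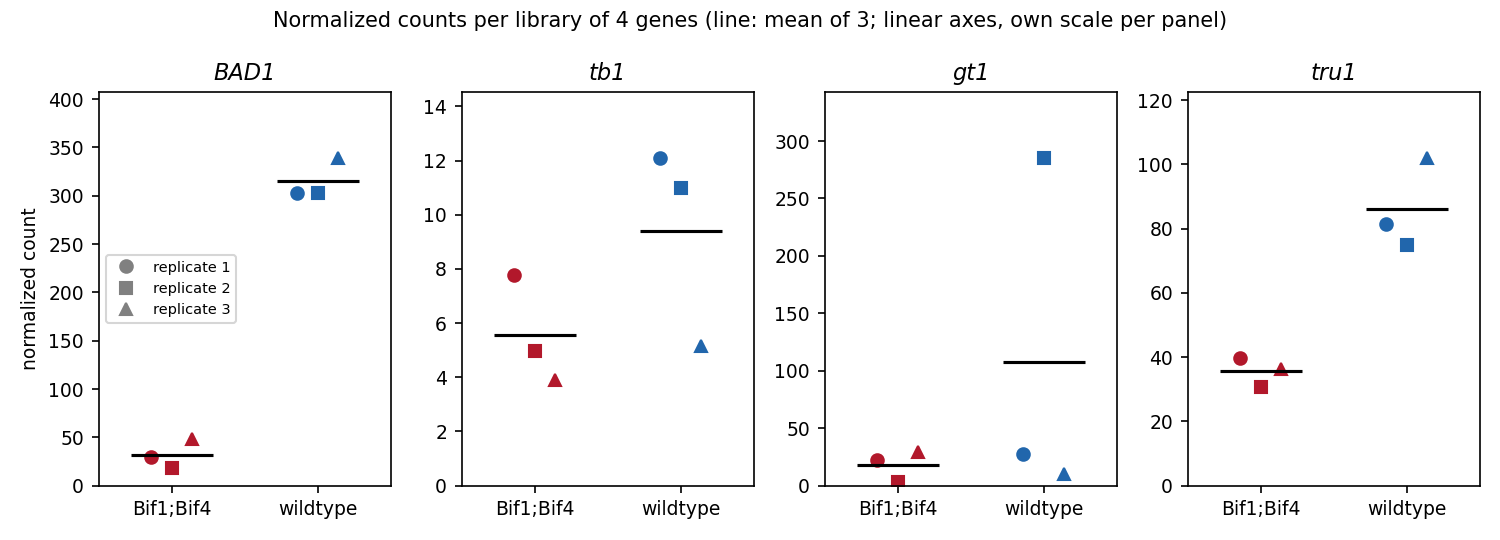
Normalized counts of BAD1, tb1, gt1 and tru1 in each library, Bif1;Bif4 left and wildtype right, on linear axes with a scale of their own. The horizontal line is the mean of 3 libraries. BAD1 and tru1 have groups that do not overlap, tb1 lies between 3.91 and 12.1 throughout, and wildtype replicate 2 stands at 286 for gt1.

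BAD1 stayed past the test in all 6 fits that left out a library, with log2 fold changes from -3.70 to -3.02 and limma adjusted p from 0.0013 to 0.019. With edgeR's quasi-likelihood test on recovered reads, by which 2.87% of genes fell and 1.95% rose, it was -3.30 (adjusted p = 0.0015). With DESeq2, by which 5.09% fell and 4.57% rose, it was -3.30 as well (adjusted p = 1.9e-25). The authors' deposited table gives -2.40 with a standard error of 0.21 and an adjusted p of 7.02e-28 for the same contrast. Whether the deposited fold changes were shrunken, that is pulled toward no change, is not stated. Their sizes, here and below, are therefore not compared with those of the fits made here. In pooled tissue, fewer cells of a type and less RNA per cell cannot be told apart. The summed inflorescence markers given above were also lower in Bif1;Bif4, and their part in the fall of BAD1 was not tested.

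The bud repressor gene tb1 was close to the limit of detection in all 6 libraries. It was at 7.77, 4.97 and 3.91 normalized counts in Bif1;Bif4 replicates 1 to 3 and at 12.1, 11.0 and 5.16 in wildtype replicates 1 to 3. The groups overlapped, since wildtype replicate 3 lay below Bif1;Bif4 replicate 1. These values rest on 8, 5 and 4 reads in Bif1;Bif4 and 11, 12 and 5 in wildtype. The mean was 5.55 ± 2.00 in Bif1;Bif4 and 9.42 ± 3.73 in wildtype (SD, n = 3 each).

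With fewer than 3 libraries at 10 or more, tb1 did not enter the test across genes. Its log2 difference was -0.64, and with no filter on low values limma gave SE 0.48 and adjusted p = 0.56. Summed over libraries and scaled for depth, its reads in Bif1;Bif4 were 0.590 times those in wildtype, with an exact 95% interval of 0.303 to 1.12 that covers counting error only. The interval includes 1, so at this depth the direction of any difference in tb1 was not resolved. Since it leaves out the spread between libraries, the interval sets no limit on how large a difference could be. The authors' deposited table gives a log2 fold change of -0.18 (SE 0.20), with a DESeq2 p of 0.37 and an adjusted p of 0.74. DESeq2 with no filter gave -0.76 here (SE 0.85), also with an unadjusted p of 0.37.

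The homeobox gene gt1, which represses outgrowth of tillers and, in the tassel, growth of the carpels that abort in male flowers, was set apart by a single library. It was at 22.3, 2.98 and 29.4 normalized counts in Bif1;Bif4 replicates 1 to 3 and at 27.5, 286 and 10.3 in wildtype replicates 1 to 3. The groups overlapped, and wildtype replicate 2 was 9.73 times the next highest library. The value of Bif1;Bif4 replicate 2 rests on 3 reads, which is at the limit of detection. The mean was 18.2 ± 13.7 in Bif1;Bif4 and 108 ± 154 in wildtype (SD, n = 3 each).

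The log2 fold change of gt1 was -1.68 (SE 1.42, limma adjusted p = 0.57), with a 95% interval from -5.22 to 1.86. With edgeR and with DESeq2 on recovered reads it was -2.57 (adjusted p = 0.40 and 0.32). By limma without wildtype replicate 2 it was -0.35 (SE 0.96, adjusted p = 0.89), and the mean was 18.2 in Bif1;Bif4 against 18.9 in the wildtype libraries that were left. The interval without that library ran from -2.69 to 1.99. With Bif1;Bif4 replicate 2 left out instead, the log2 fold change was -0.76 (SE 1.49, limma adjusted p = 0.88). The authors' deposited table gives a log2 fold change of -0.21 for gt1 and no p-value. In 52 of the 21924 tested genes wildtype replicate 2 stood at least as far above the other wildtype libraries as it did for gt1. That library held the highest of the 6 values in 22.5% of the tested genes.

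The fourth gene, tru1, was also lower in Bif1;Bif4. Its normalized counts were 39.8, 30.8 and 36.2 in Bif1;Bif4 replicates 1 to 3 and 81.5, 75.1 and 102 in wildtype replicates 1 to 3. The groups did not overlap. The mean was 35.6 ± 4.55 in Bif1;Bif4 and 86.2 ± 14.1 in wildtype (SD, n = 3 each), and the mutant mean was 41.3% of the wildtype mean. The gene fell, with a log2 fold change of -1.25 (SE 0.22, by limma, adjusted p = 0.019) and a 95% interval from -1.76 to -0.74. It ranked 267th among the 637 fallen genes. Its values were the least scattered of the 4 genes within Bif1;Bif4, with an SD of 12.8% of the mean there and 16.4% in wildtype.

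The call of tru1 depended on which libraries were fitted. With any library other than wildtype replicate 2 left out, its limma adjusted p ran from 0.053 to 0.074, with log2 fold changes from -1.33 to -1.12. Over all genes those fits called 282 to 368 fallen, against 637 with all libraries. Without wildtype replicate 2, tru1 stayed past the test (-1.34, limma adjusted p = 0.018), and 627 genes fell. With all libraries it was past the test with edgeR's quasi-likelihood test (-1.28, adjusted p = 0.022) and with DESeq2 (-1.28, adjusted p = 0.0017). The authors' deposited table gives -0.88 with an adjusted p of 0.0016. Of the 4 genes 3 passed the filter on low values and were tested, and of these 2 fell and 0 rose, where 5.04% of all tested genes were called in either direction.

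**Figure D2:**
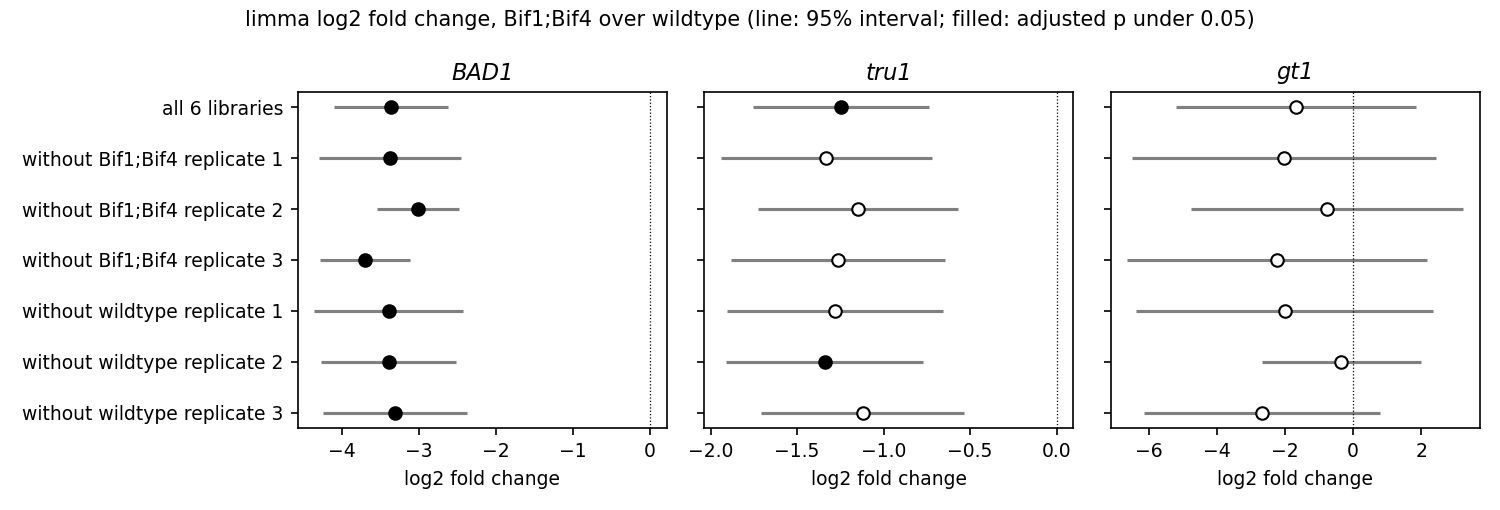
The limma log2 fold change of Bif1;Bif4 over wildtype for BAD1, tru1 and gt1 with all 6 libraries and with each library left out, with 95% intervals, where filled points have an adjusted p under 0.05. BAD1 stays between -3.70 and -3.02, tru1 between -1.34 and -1.12 with a single filled point besides that for all libraries, and gt1 moves between -2.68 and -0.35.

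The branch angle gene was then set against the bud repression genes within each library, as the log2 ratio of normalized counts + 1. A ratio of the counts of different genes depends on their transcript lengths, so only its change between groups was read. BAD1 over tru1 was -0.39, -0.75 and 0.40 in Bif1;Bif4 replicates 1 to 3 and 1.88, 2.00 and 1.72 in wildtype replicates 1 to 3. The groups did not overlap, and the ratio was lower in Bif1;Bif4 by a difference of -2.12 (means -0.25 ± 0.59 and 1.87 ± 0.14 in Bif1;Bif4 and wildtype, SD, n = 3 each). The two-sided exact permutation p was 0.10, the smallest that 3 against 3 libraries can give, so no ratio could pass 0.05 in this design. Adjusted over the 3 ratios it was 0.15.

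BAD1 over tb1 was 1.83, 1.66 and 3.32 in Bif1;Bif4 and 4.53, 4.67 and 5.79 in wildtype. These groups did not overlap either, with a difference of -2.73 and the same exact permutation p of 0.10, or 0.15 after adjustment. BAD1 over gt1 was 0.41, 2.25 and 0.69 in Bif1;Bif4 and 3.41, 0.09 and 4.91 in wildtype. Here the groups overlapped through wildtype replicate 2, and the difference of -1.69 had an exact permutation p of 0.40 (0.40 after adjustment). Without wildtype replicate 2 the difference was -3.05, and the exact permutation p was 0.10, the smallest possible for 3 against 2 libraries.

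**Figure D3:**
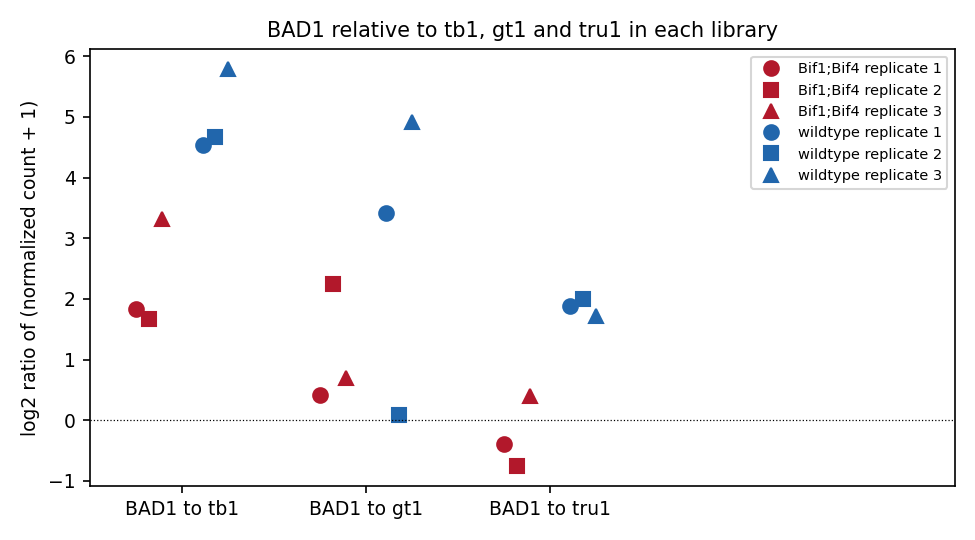
The log2 ratio of BAD1 to tb1, gt1 and tru1 in each library, with Bif1;Bif4 libraries in red on the left and wildtype libraries in blue on the right of each pair. For tb1 and tru1 the 3 Bif1;Bif4 libraries lie below the 3 wildtype libraries, and for gt1, wildtype replicate 2 at 0.09 is the lowest of the 6 libraries.

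The name table gave 7 TCP genes besides BAD1 and tb1, of which 5 were tested. By limma 1 had risen, 0 had fallen and 4 did not pass, where 2.13% and 2.91% of all tested genes rose and fell. At an unadjusted limma p under 0.05, by edgeR and by DESeq2, 0 had fallen. The share of all tested genes at the unadjusted cut was not counted. The median log2 fold change of these 5 TCP genes was 0.67, against 0.0055 over all genes tested. TCP8 rose, at 367, 293 and 395 normalized counts in Bif1;Bif4 and 210, 226 and 221 in wildtype (log2 fold change 0.67, SE 0.14, limma adjusted p = 0.030). It kept that call in 2 of the 6 fits without a library, those without replicate 2 of either genotype, and elsewhere its adjusted p reached 0.12. TCP12 and TCP30 had log2 fold changes of -0.06 and 0.77 (adjusted p = 0.90 and 0.48).

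For TCP30 the wildtype libraries held 176, 462 and 119 normalized counts, with 462 in replicate 2. Without wildtype replicate 2, where 3.54% of all tested genes rose and 2.86% fell, TCP8, TCP30 and TCP5, the last named after its values were seen, rose (limma adjusted p = 0.034, 0.032 and 0.033). BAD1 made up 2.68%, 1.51% and 3.04% of the summed normalized counts of the 9 listed TCP genes in Bif1;Bif4 replicates 1 to 3. In wildtype replicates 1 to 3 its share was 26.2%, 19.4% and 30.3%. The sum without BAD1 was 1095, 1163 and 1530 in Bif1;Bif4 and 851, 1261 and 781 in wildtype, with overlap of the groups. The name table does not hold every TCP gene of maize, so this share describes the listed genes. Like the ratios above, the share depends on transcript lengths, for which the counts were not corrected.

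Of the branch angle genes besides BAD1, 4 were tested, with a median log2 fold change of -0.91. By limma, edgeR or DESeq2, 2 fell and 0 rose. Of all tested genes 2.91% fell and 2.13% rose by limma, 2.87% and 1.95% by edgeR and 5.09% and 4.57% by DESeq2. At an unadjusted limma p under 0.05 the list gave the same counts, and the share of all tested genes at that cut was not counted. The fallen genes were the liguleless genes, which place the ligule and auricle that let a leaf bend away from the stem and also act in tassel branching. The bZIP gene lg2 was at 38.9, 38.7 and 23.5 normalized counts in Bif1;Bif4 and 213, 133 and 246 in wildtype, with a log2 fold change of -2.50 (SE 0.30, by limma, adjusted p = 0.0035). The SBP gene lg1 was at 46.6, 41.7 and 34.2 in Bif1;Bif4 and 134, 97.9 and 216 in wildtype, with a log2 fold change of -1.78 (SE 0.30, adjusted p = 0.015). It was not past the test without Bif1;Bif4 replicate 2 or wildtype replicate 1 (highest adjusted p = 0.054). TAC1, a tiller angle gene, had a log2 fold change of -0.04 (adjusted p = 0.92).

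Of 10 genes listed for bud repression, 8 were tested, with a median log2 fold change of -0.06. By limma 0 of them rose, 1 fell and 7 did not pass, where 2.13% and 2.91% of all tested genes rose and fell. At an unadjusted limma p under 0.05 the list had 3 genes higher and 2 lower. The share of all tested genes at that cut was not counted. By edgeR 1.95% of all tested genes rose and 2.87% fell, and by DESeq2 4.57% and 5.09%. Of the list edgeR called 0 risen and 1 fallen, and DESeq2 called 3 risen (tga1, ub2 and ub3) and 2 fallen (phyA2 and D53). Of these tga1 and D53, a repressor of strigolactone signalling, are named after their values were seen. The phytochrome gene phyA2, which encodes a red and far-red light receptor, fell. It was at 548, 526 and 533 normalized counts in Bif1;Bif4 and 852, 870 and 779 in wildtype (log2 fold change -0.64, SE 0.08, limma adjusted p = 0.0050). The SBP genes ub2 and ub3, which limit branch number, were higher in every Bif1;Bif4 library than in every wildtype library but did not pass (log2 fold changes 0.80 and 1.11, adjusted p = 0.11 and 0.13). Such a separation with higher values in Bif1;Bif4 was seen in 12.6% of all tested genes. The SBP gene tga1 of glume development was at 238, 241 and 367 in Bif1;Bif4 and 74.9, 131 and 41.3 in wildtype (log2 fold change 1.89, adjusted p = 0.053). Without wildtype replicate 2, tga1 and ub3 rose (adjusted p = 0.0055 and 0.032). By limma D53 had a log2 fold change of -0.49 (adjusted p = 0.15).

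**Figure D4:**
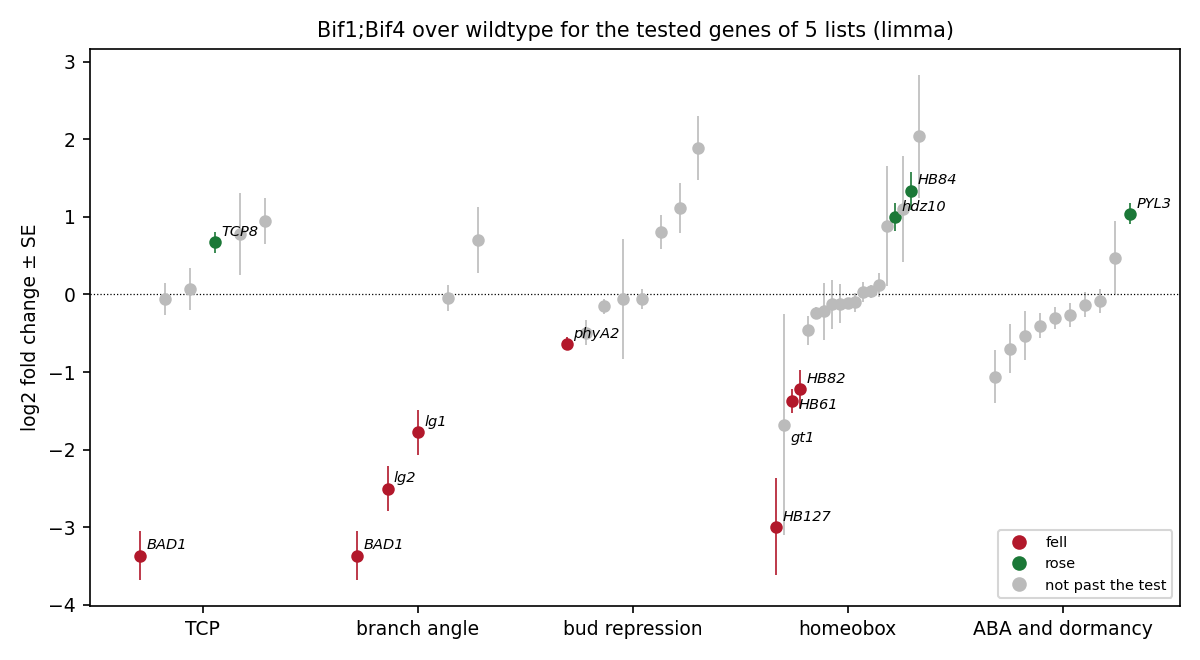
The limma log2 fold change ± SE of Bif1;Bif4 over wildtype for the tested genes of 5 lists, ordered by size within each list, where colours mark genes that fell, rose or did not pass the test. BAD1, which stands in both the TCP and the branch angle list, lies lowest at -3.36. The other fallen branch angle genes, lg2 and lg1, lie at -2.50 and -1.78, and HB127 of the homeobox list lies below them at -2.995. The genes listed for bud repression run from -0.64 to 1.89, the highest being tga1.

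Homeobox genes with an HB or hdz symbol, the name class that holds gt1, moved in both directions. The list has 22 genes besides gt1 and includes KNOX and WOX genes. Of 18 tested, 2 rose, 3 fell and 13 did not pass by limma, where 2.13% and 2.91% of all tested genes rose and fell. The median log2 fold change of the 18 was -0.11. HB127 fell, at 14.6, 1.99 and 10.8 normalized counts in Bif1;Bif4 and 57.3, 47.6 and 97.0 in wildtype (log2 fold change -2.995, SE 0.63, limma adjusted p = 0.038). The KNOX gene knox4 (HB61) fell by 1.37 and HB84 rose by 1.34 (adjusted p = 0.0034 and 0.020). The other calls, named after their values were seen, were the WOX gene HB82, which fell by 1.22, and hdz10, which rose (adjusted p = 0.032 and 0.023). Apart from knox4, each of these calls was lost in 3 to 5 of the 6 fits without a library. Without wildtype replicate 2, where 3.54% of all tested genes rose and 2.86% fell, the list had 4 risen genes. HB128 and HB45 were added (log2 fold changes 1.87 and 2.85, limma adjusted p of 0.021 for both), and the call of HB82 was lost (adjusted p = 0.059). HB128 and HB45 are likewise named after their values were seen. The leaf polarity gene rld1 (HB133) and HB55, the most abundant of the list, had log2 fold changes of -0.10 and -0.24 (adjusted p = 0.69 and 0.14).

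Abscisic acid is a hormone of bud dormancy, and 10 of 14 genes listed for it were tested. Of these 1 rose, 0 fell and 9 did not pass, with a median log2 fold change of -0.28. At an unadjusted limma p under 0.05, 1 was higher and 2 were lower, and edgeR and DESeq2 called 0 fallen. The share of all tested genes at the unadjusted cut was not counted. The receptor gene PYL3 (GRMZM2G047677) rose, at 279, 357 and 297 normalized counts in Bif1;Bif4 and 146, 155 and 149 in wildtype (log2 fold change 1.04, SE 0.13, limma adjusted p = 0.0052). Another gene listed as PYL3 (GRMZM2G154987), named after its values were seen, had a log2 fold change of -0.70 (limma adjusted p = 0.25). The receptor genes PYL10 (GRMZM2G165567) and PYL9 had log2 fold changes of -0.40 and -0.27 (adjusted p = 0.19 and 0.40). No gene besides tru1 was found for a list of BTB and ankyrin proteins. Over all these lists, 45 tested genes other than the 4 members held 4 risen and 6 fallen genes, where 2.13% and 2.91% of all tested genes rose and fell.

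Genes with a library profile like that of each member were sought among named genes, by the Euclidean distance between log2(value + 1) values centred on each gene's own mean over the 6 libraries. The named genes nearest to BAD1 were the MADS-box gene m6 (zmm6), MYBR113 and ns1 (narrow sheath1, a WOX gene of leaf margins), at distances of 1.07, 1.31 and 1.36. The gene m6 was at 5.83, 4.97 and 13.7 normalized counts in Bif1;Bif4 and 38.5, 73.2 and 60.9 in wildtype, and ns1 at 1.94, 4.97 and 9.78 in Bif1;Bif4 and 50.7, 42.1 and 44.4 in wildtype. The log2 fold changes of MYBR113, m6 and ns1 were -3.03, -2.75 and -3.02. Genes chosen for a profile like that of a member share its difference between genotypes by construction, so no test is given for them. By this distance m6 ranked 19th among all tested genes, most of which carry no informative name.

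The named genes nearest to tru1 were GLK47, CSD4 and m16 (sts1, a floral MADS-box gene of the PISTILLATA kind), at distances of 0.27, 0.37 and 0.45. Their log2 fold changes were -1.26, -1.04 and -1.52. GLK47 was at 569, 473 and 594 normalized counts in Bif1;Bif4 and 1242, 1276 and 1378 in wildtype.

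The profile of gt1 was nearest to those of Incw (mn1, a cell wall invertase), GST25 (a glutathione S-transferase) and the lipoxygenase gene lox10, at distances of 1.87, 2.09 and 2.25. All 3 were highest in wildtype replicate 2, which follows from choosing them for a profile that peaks there. Incw was at 9.72, 5.96 and 13.7 normalized counts in Bif1;Bif4 and 13.2, 94.3 and 7.22 in wildtype, and lox10 at 1028, 1098 and 1678 in Bif1;Bif4 and 1874, 17570 and 1580 in wildtype. Their log2 fold changes were -1.11, -1.63 and -1.59.

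**Figure D5:**
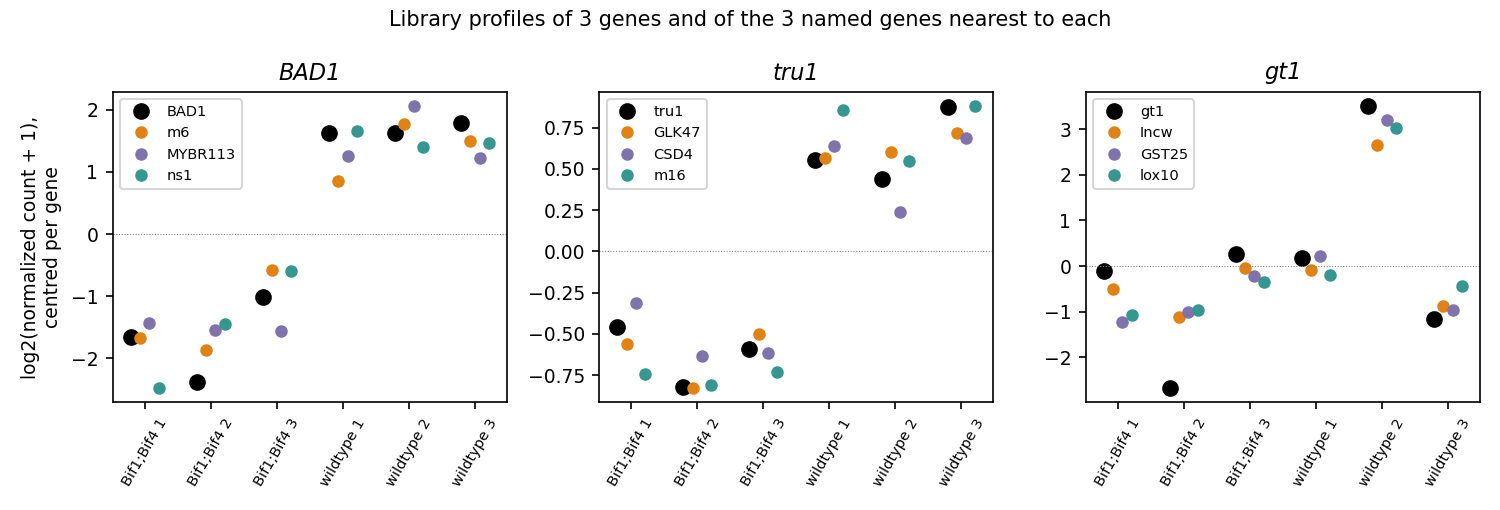
Centred log2(normalized count + 1) values per library for BAD1, tru1 and gt1 (black) and for the 3 named genes nearest to each (colours), Bif1;Bif4 libraries left and wildtype libraries right. Around BAD1 and tru1 the points separate by genotype, and around gt1 wildtype replicate 2 stands highest. The nearest genes share these patterns through their choice by profile.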

How the data were processed

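Stranded TruSeq mRNA libraries were made from column-purified, DNase-treated RNA of pooled tassels, per the labels' protocols. The submitters' processing notes name Trimmomatic, HTSeq, DESeq2 and TopHat2 2.1.1. Settings, genome build and strandedness in counting are not stated there (not given in the sources used here). In the deposited table the 6 value columns are a signal, namely normalized read counts: the authors scaled each library by its own size factor. The deposited table also holds the authors' log2 fold change with its error, a score (the Wald statistic), the p-value and the adjusted p-value. All values of each of the 6 columns were whole multiples of 1 step (100% within 1e-06 reads), so reads were recovered by division.

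Bif1;Bif4 was tested over wildtype on log2(value + 1) with limma 3.58.1, using its trend and robust options, a scale which understates changes of low genes. It covered 21924 genes with a value of at least 10 in at least 3 libraries, with two-sided p-values and Benjamini-Hochberg adjustment over all of them. A gene rose or fell where the adjusted p was under 0.05. Alternatives were edgeR 4.0.16, DESeq2 1.42.0 and limma-voom on recovered reads, other filters, pseudocounts and scaling, a block by replicate number and leaving out each library. On the recovered reads edgeR called 428 risen and 630 fallen genes. R 4.3.3 and Python 3.11.15 were used.

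The members and lists were chosen with earlier results of these data known. The genes named were the 4 members, up to 3 called and the 2 most abundant genes of each list, and the 3 named genes nearest in profile to each tested member. Genes outside this rule are said to be named after their values were seen. Names came from RefSeq (assembly Zm-B73-REFERENCE-NAM-5.0), by symbol or synonym. Of the identifiers 18476 matched exactly 1 gene, BAD1 and gt1 among them. The identifiers of tb1 and tru1 are not in that table and were named by the member list. A trehalose list was not used, since its symbols also name terpene synthases, and an alias GT1 of another gene was dropped from the homeobox list. The labels do not say whether pools came from separate plantings. A p-value here therefore sets a difference between genotypes only against the spread between these pools. Near-identical gene copies can share reads, which makes their values uncertain.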

Additional observations from a re-analysis of the deposited data

How the results depend on the processing

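BAD1 and tru1 stayed past an adjusted p of 0.05 under every alternative that kept all 6 libraries, and no log2 fold change of the 4 genes changed sign in any fit. Leaving out a library gave -3.70 to -3.02 for BAD1, -1.34 to -1.12 for tru1 and -2.68 to -0.35 for gt1, and tru1 then passed only without wildtype replicate 2. With edgeR's TMM scaling and no filter tb1 was -0.74 (adjusted p = 0.57), with DESeq2 and no filter -0.76 (adjusted p = 0.75), and with a minimum of 10 in 2 libraries -0.64 (adjusted p = 0.53). These were chosen after seeing the data. Apart from the limma fit with no filter, the other alternatives gave no value for tb1, and a minimum of 50 gave none for gt1. Over all genes DESeq2 called 1001 risen and 1117 fallen genes against 467 and 637, and the cause was not tested. By construction fewer remained past an adjusted p of 0.01, 94 risen and 180 fallen, or past a 2-fold change, 168 risen and 339 fallen. Fits without a library called 167 to 776 genes risen and 282 to 627 fallen. The trehalose list was not run. Without a library the difference in the BAD1 ratio was -3.25 to -2.33 for tb1, -3.05 to -0.63 for gt1 and -2.44 to -1.87 for tru1. With the replicate number as a block BAD1 was -3.36 (limma adjusted p = 0.0025), tru1 -1.25 (0.042) and gt1 -1.68 (0.72), TCP8 was not called, and the ratio differences stayed at -2.73, -1.69 and -2.12 for tb1, gt1 and tru1 (exact p = 0.25, 0.50 and 0.25, with 0.25 the smallest possible). The correlation of deviations from the group means was 0.07, -0.17 and -0.03 between libraries of equal number, so the numbers were not taken as pairs. At 4 to 12 reads per library, depth limits what can be said of tb1.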
